A study of Brassica rapa subsp. chinensis with 6 samples.

Results

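Class III peroxidases and their companions in the cell wall space were examined in a chlorotic pakchoi mutant. Of the 35 genes found, 32 had more reads in the mutant than in its wild type, among them 21 of 22 class III peroxidases, all 4 laccases and all 4 plastocyanin-like genes. Among all genes of the table, 59.7% were higher in the mutant. Members were rows of the authors' table whose product text holds peroxidase, laccase, plastocyanin, multi-copper, SKU5, blue copper, germin-like or dirigent, and neither glutathione nor ascorbate. The rule took 35 of 2958 genes, and the words multi-copper, SKU5, blue copper and dirigent found 0 genes each. By product text, the copper part of the set is therefore the 4 laccases and the 4 plastocyanin-like genes. Whether each of their proteins binds copper was not tested. The set also holds 2 germin-like genes, a family best known as manganese-binding proteins of the wall. A further 3 genes entered by the word peroxidase in a name or an annotated activity and belong to none of these families. They are a beta-galactosidase, an NADPH oxidase and a thioredoxin-dependent peroxidase.

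Class III peroxidases are secreted heme enzymes of plants that use hydrogen peroxide to oxidise phenolic compounds. They join lignin and suberin units and cross-link wall proteins, and some can also release reactive oxygen. Laccases are multi-copper oxidases that act on the same lignin building blocks with oxygen in place of hydrogen peroxide. Plastocyanin-like proteins, also called phytocyanins, are small proteins with a domain like that of the copper protein plastocyanin. They are mostly held at the outer face of the plasma membrane.

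The mutant is strain 564Y of pakchoi (Brassica rapa subsp. chinensis), and the wild type is strain 564. RNA came from the aboveground parts at the trifoliate stage, with 3 libraries per strain. The labels speak of independent biological replicates, and the number of plants in each library was not given in the sources used here. Each group is 1 strain and the labels do not name the mutated gene, so that mutation and any other difference between the strains cannot be told apart.

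The table lists genes that the authors had called as different, with adjusted p-values under 0.001 and absolute log2 ratios of at least 1, so peroxidase genes that did not differ were not analysed here. Higher genes made up 59.7% of the 2958, and lower genes 40.3%. The deposited values are means per strain. Whole read counts per library could be worked out from them for 26 of the members in the mutant and for all 35 in the wild type. Libraries are called A, B and C within a strain by falling size factor, since the labels' replicate numbers could not be assigned to them. For the other 9 members, all with a mutant mean above 1000 normalised reads, the authors' mean is given for the mutant. Normalised reads are reads divided by the size factor of the library. In whole shoots, more cells of a type and more RNA per cell cannot be told apart.

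Against that background of 59.7% higher genes in the table, 32 of 35 members were higher in 564Y and 3 were lower. The median log2 ratio of the 31 higher members with reads in both strains was 2.92 in the authors' deposited table (quartiles 1.92 and 4.46). The 1681 higher genes of the table with reads in both strains had a median of 1.70 (quartiles 1.28 and 2.52). A log2 ratio of at least 2, or 0 wild type reads, was found for 24 higher members, 68.6% of the 35, against 24.6% of the table. The genes of the table were selected for their difference, so these counts describe the members and were not tested. In the 26 members with libraries of both strains, the mutant and wild type libraries did not overlap. The same held for 100% of the 2518 recovered genes of the table, so this is no feature of the members.

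**Figure D1:**
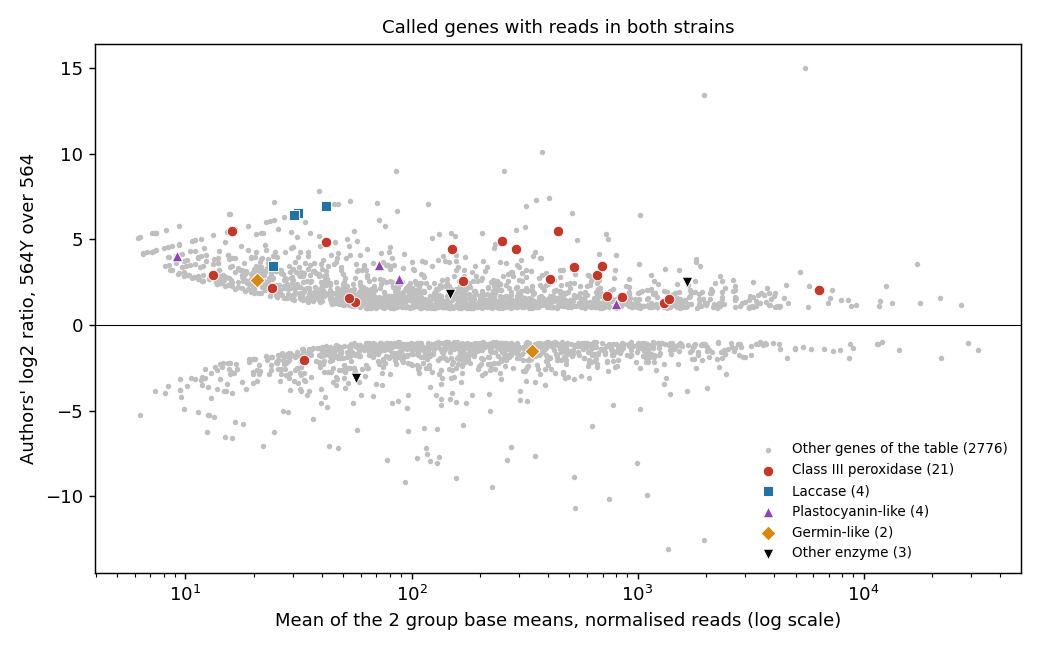
Authors' log2 ratio of 564Y over 564 against the mean of the 2 group base means in normalised reads (log scale), one point per called gene with reads in both strains. The 4 laccases stand at 3.45 to 6.94, and 14 of the 21 class III peroxidases shown lie above the median of higher genes, 1.70, at low and at high read levels.

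The 22 class III peroxidases together held 23512 normalised reads in the mutant, by the authors' means. In the wild type they held 5415, 4744 and 6092 normalised reads in libraries A, B and C. The sum in the mutant was 4.34 times the authors' sum of 5417 in the wild type. Peroxidase 21 alone made up 43.4% of the sum in the mutant and 45.7% in the wild type. Without it the ratio of sums was 4.52. The 8 higher peroxidases with 100 or more normalised reads in the wild type were 2.49 to 10.9-fold higher, with a median of 3.67. The 5 between 20 and 100 had a median of 5.96-fold, and the 7 below 20 with wild type reads had a median of 29.0-fold. All higher genes of the table in the same ranges had medians of 2.51-fold, 2.97-fold and 8.26-fold, the peroxidases included. The wild type level is the divisor of the fold, and a gene with few wild type reads needs a larger fold to pass the limit on adjusted p, so the selection itself favours larger folds at low levels.

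**Figure D2:**
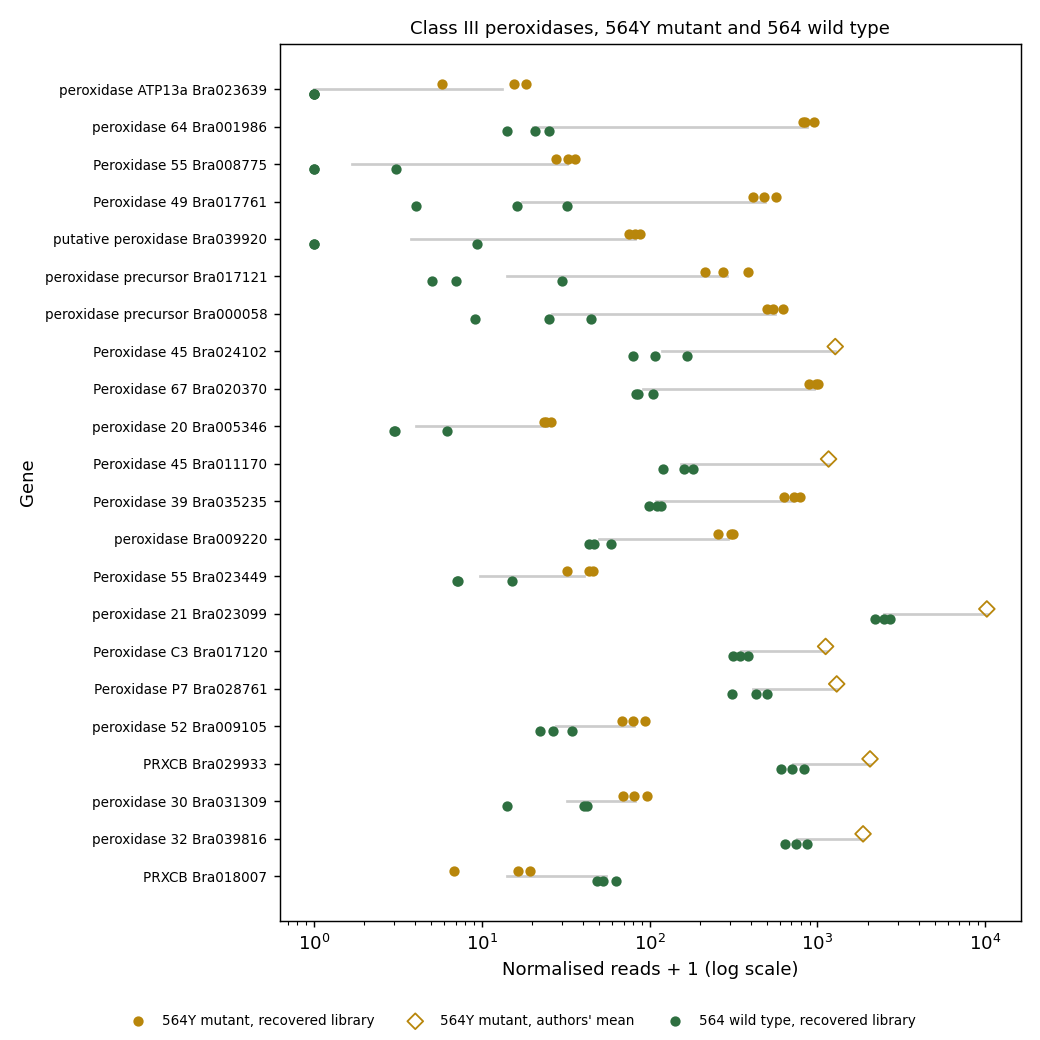
Normalised reads plus 1 (log scale) of the 22 class III peroxidases. Filled points are recovered libraries, open diamonds are the authors' mutant mean where libraries could not be recovered, and grey lines join the strain means. PRXCB Bra018007 at the bottom is the member with the mutant on the left.

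Peroxidase 64 (Bra001986) had the largest fold of the class III peroxidases among genes with more than 3 wild type reads. In Arabidopsis this enzyme takes part in the lignification of the Casparian strip, the diffusion barrier of the root endodermis. Its normalised reads were 839.5, 954 and 819 in the mutant libraries A, B and C, against 24.3, 13.2 and 19.8 in the wild type libraries. The mutant mean of 871 ± 73.1 was 45.6-fold the wild type mean of 19.1 ± 5.56 (SD, n = 3 recovered libraries each; 95% counting interval of the fold 35.0 to 60.5). The lowest mutant library stood 33.7 times above the highest wild type library. The log2 change fitted by edgeR's quasi-likelihood test was 5.50 (SE 0.17, Benjamini-Hochberg adjusted p = 3.80e-16). The authors' deposited table gives an adjusted p of 1.58e-171. All 2518 recovered genes had been selected for a difference and all passed 0.05 in that test, so neither p-value is independent evidence.

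Peroxidase 64 was also the one gene matched from the endodermis marker list, in which Casparian strip membrane proteins, SCR, SHR, ESB1 and MYB36 had 0 matches among the called genes. Lists of xylem and guard cell markers had 0 matched genes each. Among root markers, MLP34 (Bra003939) had 34.6, 25.02 and 34.2 normalised reads in the mutant, against 0, 0 and 1.04 in the wild type, while RCH2 (Bra026991), matched by its symbol alone, was lower, at 459, 513 and 507 in the mutant against 1598, 1680 and 1780.3 in the wild type. The summed level of these 2 genes, almost all of it RCH2, was 494 to 541 in the mutant and 1598 to 1781 in the wild type. The 5 matches to root hair markers were 2 higher and 3 lower, and 4 of them were copies named MRH5/SHV3, matched by symbol alone. The remaining match, RHD2 (Bra029194), was 7.24-fold higher. The MRH5/SHV3 copy Bra004101 had means of 1.29 normalised reads in the mutant and 1499 in the wild type, so sums over these genes depend strongly on it. By the authors' means the 5 summed to 2626 in the mutant and 3943 in the wild type. The 4 with recovered libraries summed to 773 to 791 in the mutant and 3021 to 3110 in the wild type, without the higher copy Bra026409, whose authors' means were 1847 in the mutant and 890.2 in the wild type. A part of root or other tissue in the peroxidase values was not tested.

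Another 3 peroxidases were abundant in the mutant and low in the wild type. Peroxidase 49 (Bra017761) had 567, 482 and 412 normalised reads in the mutant, against 15.2, 3.05 and 31.2 in the wild type. A gene matched to a radish peroxidase precursor (Bra000058) had 621, 545 and 499 in the mutant, against 24.3, 8.14 and 43.7 in the wild type. Its copy with the same match (Bra017121) had 383, 271 and 214 in the mutant, against 6.07, 4.07 and 29.1 in the wild type. All 3 genes were above 200 normalised reads in every mutant library and below 50 in every wild type library, and all were highest in wild type library C and lowest in B. Their folds were 29.5 (counting interval 22.3 to 40.6), 21.9 (17.4 to 28.1) and 22.1 (16.2 to 31.8) in that order. Without wild type library C these folds became 53.4, 34.2 and 57.1.

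At still lower levels, the putative peroxidase Bra039920 had 80.7, 86.6 and 74.2 normalised reads in the mutant, against 0, 0 and 8.32 in the wild type. One of the peroxidase 55 genes (Bra008775) had 26.9, 31.7 and 35.2 in the mutant, against 0, 0 and 2.08 in the wild type. For both genes every wild type read came from library C. The folds were 29.0 for Bra039920 (counting interval 14.7 to 69.1) and 45.1 for Bra008775, which rests on 2 wild type reads (12.3 to 384). Without library C both had 0 wild type reads and were at least 52.9-fold and at least 20.5-fold higher, with the floor set at 3 reads over the remaining libraries. Peroxidase ATP13a (Bra023639) had 4.80, 17.3 and 14.7 normalised reads in the mutant and 0 reads in the wild type. It was at least 11.98-fold higher, against a floor of 3 reads over the group, and at least 7.94, 7.96 or 8.05-fold higher without wild type library A, B or C, since the floor is then spread over fewer libraries. It had the weakest adjusted p of the members, 0.000207 in the authors' deposited table. Of all genes in the table, 2.87% had 0 wild type reads.

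The abundant peroxidases rose by smaller folds. Peroxidase 21 (Bra023099) had the highest level per length of the set, 10280 normalised reads per kilobase of coding length in the mutant and 2494 in the wild type. It had an authors' mean of 10208 normalised reads in the mutant, against 2506, 2210 and 2713 in the wild type libraries. The mutant mean was 4.12-fold the wild type mean of 2476. PRXCB (Bra029933), whose Arabidopsis counterpart contributes to the oxidative burst against microbes, had an authors' mean of 2056 in the mutant, against wild type libraries of 603, 703 and 825. It was 2.89-fold higher. Peroxidase 32 (Bra039816) had an authors' mean of 1868 in the mutant, against 742, 643 and 868 in the wild type, a 2.49-fold difference and the smallest of the higher peroxidases. Peroxidase P7 (Bra028761), named after an enzyme of turnip, had a mean of 1301 in the mutant, against 427, 309 and 503 in the wild type, 3.15-fold higher.

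For these genes 1 mutant library can be bounded even though the set of 3 is not unique. Over all solutions that fit the deposited means, mutant library C held 10133 to 11526 normalised reads of peroxidase 21 and 2104 to 2261 of PRXCB Bra029933. It held 1663 to 1797 reads of peroxidase 32 and 1245 to 1402 of peroxidase P7. Each lower bound is above the highest wild type library of its gene.

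The 2 genes matched to peroxidase 45 were high in the mutant and moderate in the wild type. Bra024102 had an authors' mean of 1275 in the mutant, against 106, 78.3 and 166 in the wild type. Bra011170 had 1164 in the mutant, against 160, 120 and 180.01 in the wild type. The folds were 10.9 and 7.59, and both genes were lowest in wild type library B and highest in C. Peroxidase 67 (Bra020370) reached a similar level with little spread: 889, 980.4 and 1005 in the mutant, against 104, 84.4 and 82.2 in the wild type. Its mutant mean was 10.6-fold the wild type mean, with a log2 change of 3.41 by edgeR's quasi-likelihood test (SE 0.13, adjusted p = 7.56e-15).

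The remaining 7 higher peroxidases were 2.58 to 7.62-fold higher. Peroxidase 39 (Bra035235), one of the Casparian strip peroxidases of Arabidopsis, had 628, 721 and 783 normalised reads in the mutant, against 116, 109.9 and 97.8 in the wild type. A gene described only as peroxidase (Bra009220) had 311, 304 and 256 in the mutant, against 57.7, 45.8 and 42.7 in the wild type. Peroxidase C3 (Bra017120), named after a horseradish enzyme, had an authors' mean of 1117 in the mutant, against 384, 313 and 346 in the wild type. These 3 genes stood at 6.58, 5.96 and 3.21-fold.

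The other 4 of these were low in both strains. Peroxidase 52 (Bra009105) had 78.8, 92.4 and 67.4 normalised reads in the mutant, against 21.3, 25.4 and 33.3 in the wild type. Peroxidase 30 (Bra031309) had 79.7, 95.2 and 68.4 in the mutant, against 39.5, 13.2 and 41.6 in the wild type. With a fold of 2.58 and the lowest mutant library 1.64 times the highest wild type library, it had the narrowest gap of all recovered members. Peroxidase 20 (Bra005346) had 23.1, 25.02 and 22.5 in the mutant, against 2.02, 2.03 and 5.20 in the wild type. Its fold was 7.62, or 11.6 without wild type library C. The second peroxidase 55 gene (Bra023449) had 45.1, 42.3 and 31.3 in the mutant, against 14.2, 6.10 and 6.24 in the wild type, 4.48-fold higher.

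One class III peroxidase was lower. PRXCB Bra018007 had 15.4, 18.3 and 5.86 normalised reads in the mutant, against 61.7, 51.9 and 47.9 in the wild type. The mutant mean of 13.2 ± 6.49 was 4.09-fold below the wild type mean of 53.8 ± 7.14 (SD, n = 3 recovered libraries each). By edgeR's quasi-likelihood test the log2 change was -2.02 (SE 0.34, Benjamini-Hochberg adjusted p = 1.17e-05). It carries the same match text as PRXCB Bra029933, which rose, and it was the minor gene of the pair: 0.637% of their summed normalised reads in the mutant and 7.04% in the wild type. Taken as a sum the pair was 2.71-fold higher.

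Within each strain, many peroxidases shared their high and low libraries. Of the 13 class III peroxidases with recovered libraries and at least 20 normalised reads in the mutant, 10 were lowest in library C, against 36.1% of 2143 recovered genes at that level. Their medians were 99.1%, 104.7% and 90.0% of the gene's mutant mean in A, B and C. Of the 14 class III peroxidases at that level in the wild type, 9 were highest in library C and 8 were lowest in library B, and 0 were highest in B. Among 2302 recovered genes at that level, 34.1% were highest in C, 35.0% were lowest in B and 29.4% were highest in B. In the median peroxidase, library A stood at 104%, B at 89.7% and C at 116% of the gene's wild type mean, while the median of all 2302 genes was 98.8% to 100.2%. The median coefficient of variation of these peroxidases was 11.1% in the mutant and 16.0% in the wild type, against 11.97% and 11.4% for all recovered genes. The widest was 70.2%, for Bra000058 in the wild type, above 99.6% of recovered genes. These libraries share all genes counted here, and the pattern was found in the data and not tested.

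**Figure D3:**
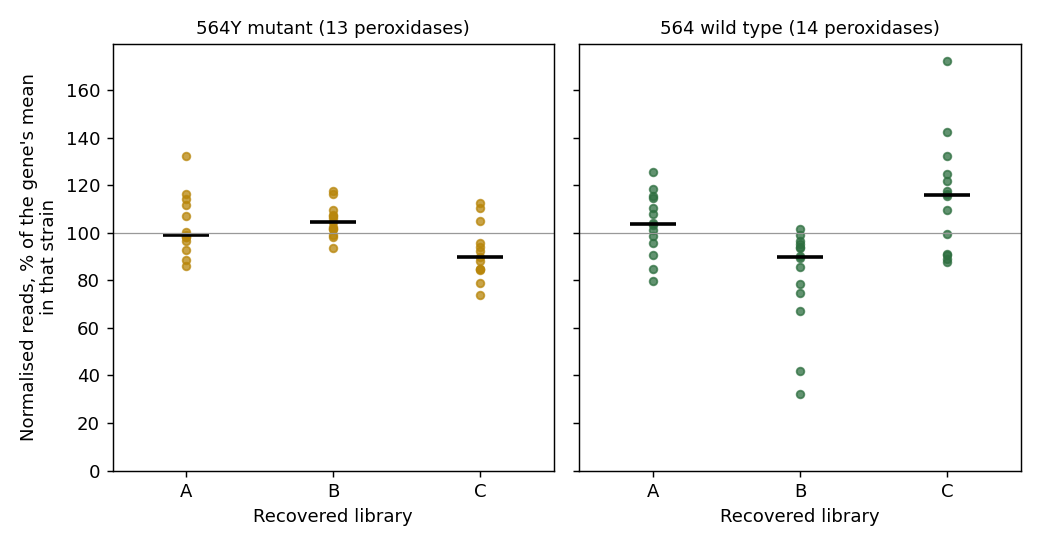
Normalised reads of each class III peroxidase in each recovered library as a percentage of the gene's mean in that strain, for genes with a mean of at least 20 normalised reads there. Black bars are medians: 99.1%, 104.7% and 90.0% over 13 genes in the mutant, and 104%, 89.7% and 116% over 14 genes in the wild type.

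All 4 laccases rose. The LAC12 gene Bra009111 had 65.3, 88.5 and 94.8 normalised reads in the mutant, against 2.02, 0 and 0 in the wild type. The LAC12 gene Bra028760 had 27.9, 62.5 and 43.0 in the mutant, against 3.04, 8.14 and 1.04 in the wild type. The mutant libraries of both copies lay above the wild type libraries, and the copy with the lower wild type level ended higher. A gene matched to poplar laccase 3 (Bra034852) had 73.0, 56.8 and 56.7 in the mutant, against 0, 2.03 and 0 in the wild type. The LAC5 gene (Bra017010) had 54.8, 66.4 and 58.6 in the mutant, against 0, 0 and 2.08 in the wild type. The 4 genes together had 221, 274 and 253 normalised reads in the mutant, against 5.06, 10.2 and 3.12 in the wild type. In the wild type 3 of the 4 had 2 reads each, both in a single library. Of all genes in the table, 2.13% had 1 to 3 wild type reads in all.

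Laccase folds rest on few wild type reads. They were 123 for Bra009111 (counting interval 33.3 to 1008), 91.6 for Bra034852 (24.9 to 758), 86.4 for Bra017010 (24.0 to 731) and 10.9 for Bra028760 (6.02 to 21.5). Without the 1 wild type library that held its reads, Bra009111 was at least 53.7-fold higher (without library A), Bra034852 at least 40.4-fold (without B) and Bra017010 at least 39.4-fold (without C). Bra028760 was 21.8-fold higher without wild type library B. The edgeR quasi-likelihood test gave Bra009111 a log2 change of 6.69 (SE 0.53, adjusted p = 4.05e-10). Per length the laccases stayed low, at 30.2 to 56.4 normalised reads per kilobase of coding length in the mutant and 0.403 to 2.77 in the wild type. The median class III peroxidase had 508 per kilobase in the mutant and 39.97 in the wild type.

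**Figure D4:**
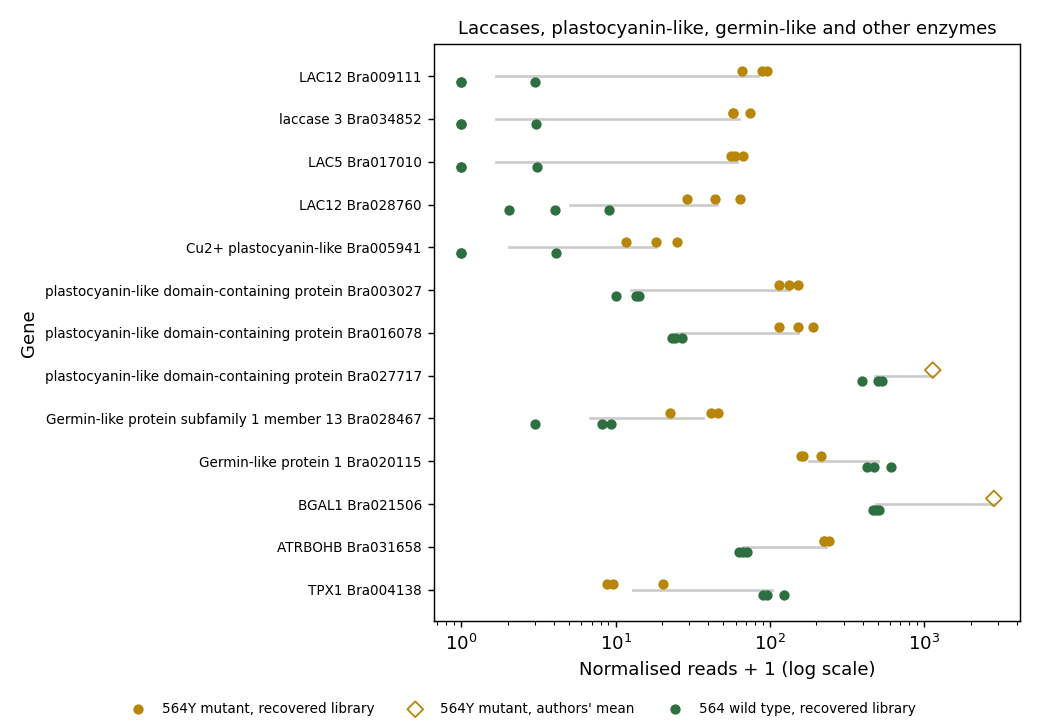
Normalised reads plus 1 (log scale) of the laccases, plastocyanin-like genes, germin-like genes and the 3 other enzymes, from top to bottom. Filled points are recovered libraries, open diamonds are authors' mutant means, and grey lines join strain means. The laccases have wild type libraries at or near 0, and germin-like protein 1 and TPX1 have the mutant on the left.

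The 4 plastocyanin-like genes all rose, over a wide range of levels. The most abundant, Bra027717, had an authors' mean of 1133 normalised reads in the mutant, against 533, 499.5 and 395 in the wild type. Bra016078 had 114, 150.1 and 189.5 in the mutant, against 22.3, 23.4 and 26.01 in the wild type. Bra003027 had 114, 152 and 132 in the mutant, against 9.11, 13.2 and 12.5 in the wild type. These 3 genes carry the same match text, a plastocyanin-like domain protein of Arabidopsis, although their coding lengths differ, at 558, 534 and 885 bases in that order. Their folds were 2.38, 6.33 and 11.4. Mutant library C of Bra027717 was bounded at 1005 to 1140. The rarest gene, Bra005941, had 17.3, 24.1 and 10.7 in the mutant, against 0, 0 and 3.12 in the wild type. Its 16.7-fold difference rests on 3 wild type reads, all in library C (counting interval 5.52 to 85.0), and without that library it was at least 11.4-fold higher. Bra027717 held 79.0% of the family's summed reads in the mutant and 92.9% in the wild type.

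The 2 germin-like genes went opposite ways. Germin-like protein 1 (Bra020115) had 158, 164 and 214 normalised reads in the mutant, against 607, 425 and 471 in the wild type. It was 2.81-fold lower, and the groups did not overlap. The gene of germin-like subfamily 1 member 13 (Bra028467) had 45.1, 40.4 and 21.5 in the mutant, against 2.02, 7.12 and 8.32 in the wild type, 6.13-fold higher (counting interval 3.68 to 11.0). Because the lower gene was the more abundant one, the sum of the pair fell to 204, 203.97 and 235 in the mutant, against 609, 432 and 480 in the wild type.

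Of the 3 other enzymes, 2 rose and 1 fell. BGAL1 (Bra021506), a beta-galactosidase that trims wall polysaccharides, had an authors' mean of 2820 normalised reads in the mutant, against 507, 463 and 488 in the wild type. It was 5.80-fold higher. ATRBOHB (Bra031658), a plasma membrane NADPH oxidase that releases superoxide outside the cell, had 223, 241 and 223 in the mutant, against 65.8, 70.2 and 62.4 in the wild type. At 3.46-fold, it had the smallest spread between mutant libraries of all recovered members, 4.72%. TPX1 (Bra004138), a peroxiredoxin that removes peroxides inside the cell with thioredoxin, had 19.2, 8.66 and 7.81 in the mutant, against 121, 89.5 and 94.7 in the wild type. It was 8.57-fold lower, with a log2 change of -3.08 by edgeR's quasi-likelihood test (SE 0.30, adjusted p = 7.51e-09).

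Several members share a match text, and the triplicated Brassica genome holds many gene copies. The treatment of reads that fit more than 1 copy was not given in the sources used here, which leaves the split within a pair uncertain. The radish-matched peroxidases Bra000058 and Bra017121 kept their proportion, with Bra000058 at 65.7% of the pair in the mutant and 66.0% in the wild type. The peroxidase 45 genes stayed near balance, with Bra024102 at 52.3% in the mutant and 43.3% in the wild type. In 2 other pairs the minor wild type copy gained more than in the peroxidase 45 pair. Bra008775 held 37.3%, 42.9% and 52.9% of the peroxidase 55 reads in the mutant libraries, against 0%, 0% and 25% in the wild type libraries. Bra009111 held 70.1%, 58.6% and 68.8% of the LAC12 reads in the mutant, against 40%, 0% and 0% in the wild type. The wild type shares of both pairs rest on few reads.

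Neighbouring identifiers were found in 3 pairs of members. Both genes rose in each, as did 32 of all 35 members. How often other called genes have close identifiers was not counted. Peroxidase C3 (Bra017120) and the radish-matched Bra017121 have consecutive identifiers. So do the LAC12 gene Bra028760 and peroxidase P7 (Bra028761). The other LAC12 gene, Bra009111, follows peroxidase 52 (Bra009105) by 6 identifiers, with 0 called genes between them. The 2 LAC12 copies thus each lie close to a peroxidase in identifier order. None of the 35 identifiers was found in the reference gene table (0 of 2958 for all genes), so no genome position is given. Coding lengths were 795 to 1107 bases for the peroxidases, with a median of 994.5, and 1470 to 1683 bases for the laccases.

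Genes matched by words for the supply of substrates to these enzymes were counted in the same way. The lignin and Casparian strip list had 5 called genes, 2 higher and 3 lower, with a median log2 ratio of -1.05 in the authors' deposited table. Cinnamate 4-hydroxylase (Bra021636), an early step of the phenylpropanoid pathway, had 198, 155 and 178 normalised reads in the mutant, against 676, 473 and 534 in the wild type. Cinnamoyl-CoA reductase is the enzyme that opens the monolignol branch. A gene described as a putative cinnamoyl-CoA reductase (Bra015740) had 284, 209.7 and 322 in the mutant, against 522, 601 and 567 in the wild type. Both were lower in every mutant library. The other lower gene, the 4-coumarate-CoA ligase family gene Bra016466, was 14.5-fold lower. The ligase genes Bra012232 and Bra025823 were 2.17-fold and 3.05-fold higher.

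A word list for the forming and removal of hydrogen peroxide matched 8 called genes, with 3 higher and 5 lower. Its words did not match TPX1 or the class III peroxidases given above, so the 8 are not all called genes that handle hydrogen peroxide. The higher ones were ATRBOHB as given above, the NADPH oxidase RHD2 (Bra029194) and a diamine oxidase (Bra036916). RHD2, which drives root hair growth in Arabidopsis, had 47.1, 66.4 and 56.7 normalised reads in the mutant, against 7.08, 10.2 and 6.24 in the wild type. The diamine oxidase had 61.5, 77.0 and 87.9 in the mutant, against 18.2, 20.3 and 19.8 in the wild type. Groups of both genes were apart. The lower ones included a catalase (Bra025832), with authors' means of 7695 in the mutant and 20862 in the wild type. They also included an ascorbate oxidase (Bra002356), a copper enzyme of the wall, with 0 reads in the mutant, against 13.2, 19.3 and 12.5 normalised reads in the wild type. It was at least 15.5-fold lower, or at least 10.3, 10.3 or 10.4-fold lower without mutant library A, B or C. The other 3 were 2 glutathione S-transferases of the GSTF9 type (Bra022815 and Bra021673), 2.22-fold and 2.08-fold lower, and the chorismate mutase CM1 (Bra036217), 2.01-fold lower, all matched by an annotated activity.

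Words for copper supply also matched 8 called genes outside the set, again 3 higher and 5 lower. Their median log2 ratio was -1.10 in the authors' deposited table. These words did not match the ascorbate oxidase given above, so the 8 are not all copper-related genes. The chaperone ATCOX17 (Bra021104), which carries copper to cytochrome oxidase in mitochondria, had 19.2, 10.6 and 9.77 normalised reads in the mutant, against 96.1, 77.3 and 92.6 in the wild type. A gene related to the copper chaperone CCH (Bra034669) had 39.4, 29.8 and 44.9 in the mutant, against 6.07, 6.10 and 7.28 in the wild type. The first was 6.73-fold lower and the second 5.87-fold higher. MLP328 (Bra026653), matched by an annotated copper binding, was 18.1-fold higher, with authors' means of 1278 in the mutant and 70.6 in the wild type. A copper-binding family gene (Bra009773) was 3.60-fold higher, and a copper ion binding protein (Bra008686) was 5.14-fold lower. An aconitate hydratase (Bra010419), 3.67-fold lower, and the 2 GSTF9 genes make up the rest.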

How the data were processed

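The data were 1 table of 2958 genes from 3 libraries of 564Y and 3 of 564. The submitters' processing notes list DESeq 1.10.1, TopHat2 2.0.12 and Bowtie2 2.2.3 without their roles. The build and the read counter were not given in the sources used here. Per the file headers, the authors deposited a mean read count per strain and a base mean (the mean of reads divided by size factors), each treated as a signal. They also deposited the log2 ratio of 564Y over 564, a p-value and its adjusted value. A base mean of 0.001 stood for 0 reads. Lengths are multiples of 3 in all 2958 genes and thus coding lengths.

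Members were counted by the authors' deposited calls. Library counts were recovered as the whole numbers that fit both means, for 2518 genes (85.1%) in both strains. Size factors were 1.04, 1.04 and 1.02 in 564Y and 0.988, 0.983 and 0.961 in 564. On simulated libraries 89.8% of mutant and 97.5% of wild type genes had 1 solution, and 0 were wrong. Recovered counts were tested with edgeR 4.0.16 (quasi-likelihood, authors' size factors, Benjamini-Hochberg adjustment) and with DESeq2 1.42.0. A check of edgeR on simulated counts held mostly unchanged genes, unlike the called genes here. It therefore cannot vouch for their SEs or adjusted p-values. An SE is the log2 change divided by the root of its F statistic. Counting intervals of folds are 95% exact binomial and, like floors, cover counting error only. The depth of the libraries was not given in the sources used here. Coding length stands for gene length in levels per kilobase. Every member is named, with values by library where these were recovered and the authors' mutant mean for the other 9. The members and lists were chosen with earlier results of these data known. Lists were matched by words in product texts, and FAH1 (a fatty acid hydroxylase) was left out as 1 false match.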

Additional observations from a re-analysis of the deposited data

How the results depend on the processing

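No paired analysis was possible because no replicate number could be given to a recovered library. The count on recovered genes alone was chosen after seeing the data. Counts on recovered counts can include only 26 of the 35 members and 15 of the 22 class III peroxidases, which lowers them by construction. Of the 23 higher recovered members and 14 higher recovered peroxidases, DESeq2, TMM scaling and a filter on low counts each gave 13 higher peroxidases at the authors' limits, and edgeR without these changes 14. Leaving out 1 recovered library gave 20 to 23 higher members and 12 to 14 higher peroxidases, with 3 lower members and 1 lower peroxidase each time. Class III peroxidases alone were 21 higher and 1 lower. Counting copies with 1 match text once left 0 lower peroxidases, because PRXCB Bra018007 joined its higher copy. With the log2 limit raised to 2, 24 members were higher and 2 lower. TMM scaling, which takes called genes as its basis, shifted the median log2 change by -0.40, and 0 members changed sign. Of 352 recomputed log2 values of the 34 members with reads in both strains, 0 changed direction. A pseudocount added to both means cannot reverse a direction, and all genes were selected for an absolute log2 ratio of at least 1. The lack of reversals therefore says little. The 250 values that came from edgeR or DESeq2 fits covered 25 members and all passed 0.05, which also says little for genes selected to differ. Peroxidase ATP13a, with 0 wild type reads, is outside these counts. Its adjusted p was 1.96e-05 to 0.00135 over its edgeR and DESeq2 fits, and the filter on low counts gave no value for it. Low wild type counts limit 6 members with 3 or fewer reads.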
